A study of Mus musculus with 18 samples.

Results

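Por, Alas1, Cyp1b1, Cyp2f2, Ephx1, Gstm1, Gsta3, Gsta4 and Ahr are genes of heme supply and of the metabolism of foreign compounds, and these 9 were taken by symbol from the 32285 genes of the count matrices. They were followed in dorsal dermis of adult male C57BL/6J mice of WT genotype, all held in 12 h of light and 12 h of dark, and no treatment is named in the labels. Each of the 6 zeitgeber times (ZT, hours after lights on; ZT2, ZT6, ZT10, ZT14, ZT18 and ZT22) had 3 mice with 1 library each, 18 libraries in all, sampled every 4 h over 3 days. Replicate 1 was collected from hour 2 to 22, replicate 2 from hour 26 to 46 and replicate 3 from hour 50 to 70, so a replicate number marks 1 cycle of collection. Live cells were sorted after 1.5 h in collagenase at 37 °C, so each value also carries that step.

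These genes work as a chain. Cytochrome P450 enzymes such as Cyp1b1 and Cyp2f2 add oxygen to a compound (phase 1), with electrons that Por passes to them and with a heme group whose synthesis begins with Alas1. Ephx1 opens the epoxides that some P450 reactions leave, and the glutathione transferases Gstm1, Gsta3 and Gsta4 join reactive products to glutathione (phase 2). Ahr is the ligand-activated receptor that pairs with Arnt and switches on Cyp1b1 among others. In liver, Por, Alas1 and other genes of this chain are textbook outputs of the circadian clock, through the transcription factors Dbp, Tef and Hlf.

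The 18 libraries held 4850221 to 40827442 UMIs (unique molecular identifiers, 1 for each captured RNA) in 23990 barcodes, and 16877 cells passed the filter on genes and mitochondrial share. Clusters with fibroblast markers (Col1a1, Col3a1, Dcn, Lum, Pdgfra) held 12551 fibroblast-like cells with a median of 21890 UMIs, and clusters with immune markers (such as Ptprc and Tyrobp) held 3429 immune-like cells with a median of 11130 UMIs. The UMIs of a class were summed per library, giving 2908197 to 33578738 UMIs for fibroblasts and 481549 to 6381578 for immune cells, and levels are stated as UMIs per 10000 UMIs of that sum. These are counts of 3′ ends, which do not depend on the length of a gene, so levels of different genes are set side by side without a length correction. Other differences between genes in counting were not tested. In such sums, fewer cells that express a gene and less RNA per cell cannot be told apart. The library ZT18 replicate 1 was the smallest, with 109 fibroblasts and 31 immune cells. In ZT14 replicate 1, immune cells made up 43.8% of the kept cells, against 10.2% to 28.9% in the others.

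In fibroblasts, where all 9 genes could be tested, 3 of them changed over the day. Por and Ephx1 peaked late in the light phase, at 10.47 ± 0.33 h and 9.96 ± 0.52 h (± SE, n = 18 libraries), and Gsta3 peaked in the middle of the dark phase, at 16.43 ± 0.49 h. The fitted 24 h cosine had a peak-to-trough ratio of 2.32 for Por, 2.06 for Ephx1 and 4.84 for Gsta3. Alas1, Cyp1b1, Cyp2f2, Gstm1, Gsta4 and Ahr did not pass the test. In immune cells, where 5 of the 9 genes could be tested, none passed. The test was edgeR's quasi-likelihood test of a cosine and a sine of 24 h, adjusted by Benjamini-Hochberg over all genes tested, and the share of all tested genes that passed was 13.6% (of 12786) in the fibroblast fit and 0.072% (of 11114) in the immune fit, where 847 genes had an unadjusted p under 0.05 and DESeq2 called 35 genes.

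**Figure D1:**
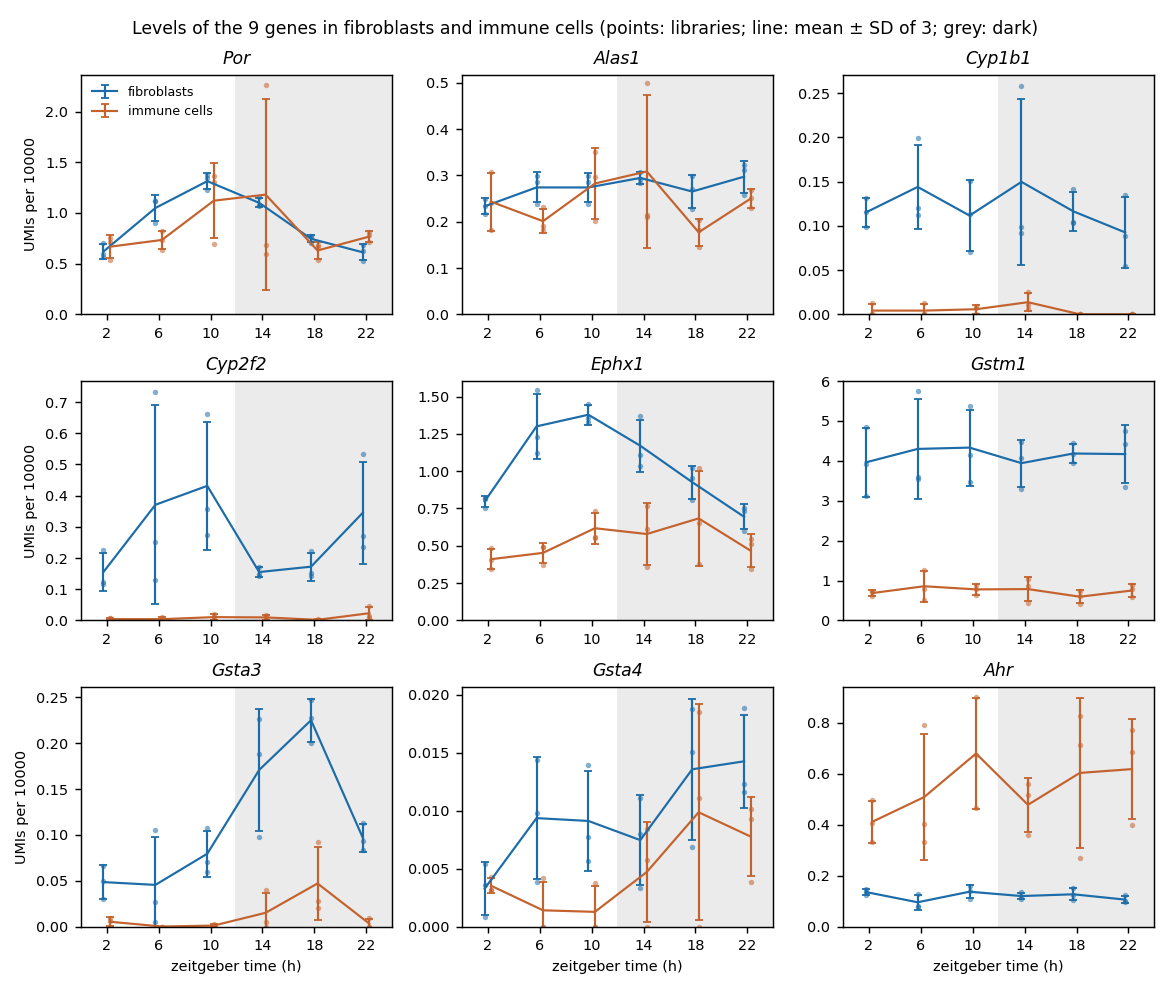
Level of each of the 9 genes (UMIs per 10000, y axis) against zeitgeber time in hours (x axis) in the summed fibroblasts and the summed immune cells; points are libraries, lines join the means of 3 and bars are the SD. Por and Ephx1 in fibroblasts were highest at ZT10 and lowest at ZT22, Gsta3 in fibroblasts was highest at ZT18, and 1 immune library at ZT14 stood apart for Por at 2.27.

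Por, which hands electrons from NADPH to every microsomal P450, lies at chr5:135670033-135735326 on the plus strand (GRCm38; ENSMUSG00000005514). In the fibroblast sums it had 0.706, 0.563 and 0.590 UMIs per 10000 at ZT2, 0.905, 1.12 and 1.12 at ZT6 and 1.35, 1.38 and 1.22 at ZT10. It had 1.08, 1.07 and 1.15 at ZT14, 0.763, 0.769 and 0.703 at ZT18 and 0.525, 0.684 and 0.626 at ZT22. The 3 libraries at ZT10 were above the 15 libraries of the other times, and those at ZT2 and ZT22 overlapped each other. The mean was 1.31 ± 0.081 (SD, n = 3) at ZT10 and 0.612 ± 0.080 at ZT22, a 2.15-fold difference. The amplitude, the distance from the middle of the fitted curve to its peak, was 0.61 ± 0.05 on the log2 scale (adjusted p = 3.37e-07), and it stayed between 0.59 and 0.64 with the call kept when each of the 18 libraries was left out. Gm43091 and Gm16061 overlap Por on the other strand, which the stranded 3′ libraries separate.

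Alas1, the first and rate-limiting enzyme of heme synthesis, lies at chr9:106233455-106248654 on the minus strand (ENSMUSG00000032786). Its fibroblast level was 0.216 at the lowest, 0.285 at the median and 0.323 at the highest of the 18 libraries. The highest mean, 0.297 ± 0.034 at ZT22, was 1.27-fold the lowest, 0.233 ± 0.017 at ZT2. These 2 groups of 3 did not overlap, but they were picked as the extremes of the time means. Among the other members that did not pass, the extreme groups of Cyp2f2 and Gsta4 did not overlap either. Those of Cyp1b1, Gstm1 and Ahr did. How often this happens among all genes was not tested. The fitted amplitude of Alas1 was 0.07 ± 0.06 (adjusted p = 0.667), so a 24 h rhythm of Alas1 was not detected.

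Cyp1b1 is a P450 of steroid and polycyclic hydrocarbon oxidation and lies at chr17:79701537-79715061 (minus strand, ENSMUSG00000024087). It ranged from 0.054 to 0.258 with a median of 0.113, and both the highest value (ZT14 replicate 1) and 2 of the lower ones (0.099 and 0.092) belonged to ZT14. The spread within ZT14 was thus wider than that of the time means, which ran from 0.093 at ZT22 to 0.150 at ZT14. The SD was 0.094 at ZT14 and 0.017 to 0.048 at the other times. The amplitude was 0.19 ± 0.15 (adjusted p = 0.625). Cyp2f2, a P450 known in lung for the oxidation of naphthalene, lies at chr7:27119909-27133660 (plus strand, ENSMUSG00000052974). It ranged from 0.118 to 0.732 with a median of 0.224, and the amplitude was 0.43 ± 0.35 (adjusted p = 0.474). The 3 highest libraries for Cyp2f2 came from 3 different times, ZT6 replicate 2 with 0.732, ZT10 replicate 3 with 0.663 and ZT22 replicate 3 with 0.533. Opposite strands of Cyp2f2 and Alas1 carry Gm15883 and 4930500F10Rik.

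Ephx1, the microsomal epoxide hydrolase, lies at chr1:180976210-181020904 on the minus strand (ENSMUSG00000038776), where Gm36961 overlaps it on the same strand, so reads of the overlap cannot be assigned with certainty. It had 0.752, 0.823 and 0.816 UMIs per 10000 at ZT2, 1.12, 1.23 and 1.55 at ZT6 and 1.33, 1.45 and 1.35 at ZT10. It had 1.04, 1.37 and 1.11 at ZT14, 1.02, 0.805 and 0.953 at ZT18 and 0.597, 0.735 and 0.751 at ZT22. The 3 libraries at ZT22 were the lowest of the 18, next to those at ZT2, while ZT6, ZT10 and ZT14 overlapped one another. The mean fell from 1.38 ± 0.066 at ZT10 to 0.694 ± 0.085 at ZT22, a 1.98-fold difference. The amplitude was 0.52 ± 0.05 (adjusted p = 1.05e-05) and lay between 0.50 and 0.54 in the 18 fits that left out a library, all of which kept the call.

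Among the glutathione transferases, Gstm1 (chr3:108012255-108017973, minus strand, ENSMUSG00000058135) was the most abundant of the 9 genes, and Gsta3 and Gsta4 were the rare ones. Gstm1 ranged from 3.12 to 5.75 UMIs per 10000 with a median of 4.11. Its means at the 6 times lay between 3.94 and 4.33, with an SD of 0.248 to 1.25 at the single times. The amplitude of 0.05 ± 0.06 (adjusted p = 0.887) left no detectable rhythm. Reads that map equally to several genes are dropped in counting, so levels of Gstm1, Gsta3 and Gsta4 are uncertain where a paralog shares their sequence. How far this holds for each of them was not tested.

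Gsta3 (chr1:21240589-21265661, plus strand, ENSMUSG00000025934) is an alpha class transferase. It had 0.030, 0.067 and 0.049 UMIs per 10000 in fibroblasts at ZT2, 0.027, 0.0048 and 0.105 at ZT6 and 0.071, 0.108 and 0.060 at ZT10. It had 0.098, 0.227 and 0.188 at ZT14, 0.248, 0.227 and 0.2004 at ZT18 and 0.083, 0.113 and 0.093 at ZT22. The libraries at ZT18 and 2 of the 3 at ZT14 were above all others. The mean was 0.225 ± 0.024 at ZT18 and 0.045 ± 0.053 at ZT6, a 4.96-fold difference, with the widest relative spread at ZT6. The amplitude was 1.14 ± 0.27 (adjusted p = 0.000877), between 1.06 and 1.36 without each library in turn, with the call kept in all 18 fits. The fibroblasts held 3022 UMIs of Gsta3 in all, against 24291 of Por and 28018 of Ephx1.

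Gsta4 (chr9:78182774-78209349, plus strand, ENSMUSG00000032348), which conjugates the lipid peroxidation product 4-hydroxynonenal, was the rarest, with 252 UMIs in 12551 fibroblasts. Its level ranged from 0.00085 to 0.019, and its amplitude of 0.60 ± 0.28 with a peak at 17.92 h did not pass (adjusted p = 0.238). Ahr (chr12:35497974-35535038, minus strand, ENSMUSG00000019256) ranged from 0.077 to 0.160 with a median of 0.123 in fibroblasts, and its amplitude was 0.05 ± 0.10 (adjusted p = 0.910).

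In the sums of all kept cells, which use no clusters, the same 3 genes passed out of 9, where 5.13% of all genes did. Fibroblasts gave 24291 of the 28550 UMIs of Por in these sums, 28018 of 30442 for Ephx1 and 3022 of 3091 for Gsta3. These fits are therefore not independent of the fibroblast ones. The amplitude there was 0.58 ± 0.06 for Por (adjusted p = 1.75e-05), 0.47 ± 0.06 for Ephx1 (adjusted p = 0.00109) and 1.16 ± 0.31 for Gsta3 (adjusted p = 0.0107). For Gsta3 in all kept cells the call was lost when the 6 times were tested as unordered groups (adjusted p = 0.10).

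The promoters of the 3 rhythmic genes and of Cyp1b1 are shown for their motifs. They are the bases just before the RefSeq start of transcription (GRCm38.p6), read in the direction of the gene, and capitals mark a motif match. The motifs searched on both strands were the E-box CACGTG, its variant CACGTT, the D-box TTATGTAA bound by Dbp, Tef and Hlf, the core GCGTG of the xenobiotic response element bound by Ahr and Arnt, the antioxidant response element TGACNNNGC, and the core AGGTCA of the REV-ERB and ROR element. Among 32851 promoters of 250 bases, these were present in 6.02%, 3.85%, 0.819%, 28.2%, 10.2% and 14% respectively, and no D-box or E-box lay in any of the 4 windows.
Por, chr5:135688895-135689035 (plus strand, 250 to 110 bases before a start within the gene; the 109 bases nearer to the start are exonic in another transcript and left out): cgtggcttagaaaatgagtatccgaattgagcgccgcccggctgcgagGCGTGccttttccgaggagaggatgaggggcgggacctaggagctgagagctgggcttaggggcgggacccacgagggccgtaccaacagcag
Ephx1, chr1:181017570-181017819 (minus strand, inside the annotated gene, with no exon bases): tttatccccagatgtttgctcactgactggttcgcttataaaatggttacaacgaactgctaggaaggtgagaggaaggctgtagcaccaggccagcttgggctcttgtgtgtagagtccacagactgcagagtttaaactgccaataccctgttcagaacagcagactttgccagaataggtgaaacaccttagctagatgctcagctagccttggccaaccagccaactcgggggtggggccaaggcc
Gsta3, chr1:21240335-21240584 (plus strand): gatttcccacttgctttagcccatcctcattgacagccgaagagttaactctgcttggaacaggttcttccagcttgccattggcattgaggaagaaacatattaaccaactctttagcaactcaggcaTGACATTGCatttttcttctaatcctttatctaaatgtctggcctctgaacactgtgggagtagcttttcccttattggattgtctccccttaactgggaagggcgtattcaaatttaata
Cyp1b1, chr17:79715062-79715311 (minus strand): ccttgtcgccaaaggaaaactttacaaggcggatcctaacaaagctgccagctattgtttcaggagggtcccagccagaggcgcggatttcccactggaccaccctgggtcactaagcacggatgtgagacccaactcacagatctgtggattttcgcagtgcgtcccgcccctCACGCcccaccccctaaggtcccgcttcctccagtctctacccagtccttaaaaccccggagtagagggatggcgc

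The whole 250 bases of Por held 3 cores of the xenobiotic response element, at 202, 62 and 24 bases before the start, and Cyp1b1 held 1 at 76 bases. Gsta3 held 1 antioxidant response element at 121 bases, and Ephx1 held no match. The windows of the Gstm1 entries overlap, and both held the same xenobiotic core, at 76 and 231 bases before their starts. Of 2 Alas1 entries, 1 also held this core, in a window of which 235 of the 250 bases are exonic. The E-box variant CACGTT lay at 50 bases in 1 Gstm1 entry, within its 155 exonic bases, and Cyp2f2 held 1 AGGTCA. RefSeq promoters were matched for 7 of the 9 genes. A match of these letters is a description of the window and not evidence of binding.

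In the immune sums Por had 0.756, 0.536 and 0.710 UMIs per 10000 at ZT2, 0.639, 0.825 and 0.737 at ZT6 and 1.31, 1.36 and 0.698 at ZT10. It had 2.27, 0.597 and 0.679 at ZT14, 0.685, 0.666 and 0.537 at ZT18 and 0.710, 0.812 and 0.780 at ZT22. Apart from 2 libraries at ZT10 and 1 at ZT14, all lay between 0.536 and 0.825. The amplitude was 0.41 ± 0.20 (unadjusted p = 0.0472, adjusted p = 0.650), the only one of the 5 tested members with an unadjusted p under 0.05, and DESeq2 called none of the 5 either. The high library, ZT14 replicate 1, held 92 of the 147 neutrophil-like cells. They were 33.6% of its immune cells, against 0% to 6.86% in the other libraries, and had 5.31 UMIs of Por per 10000. These 92 cells gave 440701 of the 3977380 immune UMIs of that library. Monocyte-like cells were 23.7% of its immune cells, and 35.3% in ZT2 replicate 3, where Por was 0.710. The part of either group in the high value was not tested. Without ZT14 replicate 1, the immune amplitude of Por was 0.25 with an edgeR adjusted p of 0.673. Ephx1 in immune cells had an amplitude of 0.32 ± 0.13 and a fitted peak at 14.45 ± 1.68 h (adjusted p = 0.655).

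The difference in 24 h rhythm between the classes was tested directly, with the library as a block, and 0.213% of 13162 genes passed. None of the 5 members with enough immune UMIs for a fit did. By edgeR, the adjusted p was 0.151 for Ephx1, 0.735 for Por, 0.911 for Ahr, 0.917 for Gstm1 and 0.938 for Alas1. Cyp1b1, Cyp2f2 and Gsta3 had 25, 38 and 42 UMIs in all immune cells, too few to compare a rhythm. Among all genes, 28 passed after adjustment and 1123 had an unadjusted p under 0.05.

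The fibroblast-like cells fell into sub-clusters that were numbered by size, since several share their markers. F1 (4774 cells) was led by Cxcl13 and Sult1e1, F2 (2294) by Krtdap, Dmkn and Il34, F3 (1743) by the inflammatory genes Ptgs2, Cxcl10 and Cxcl1, and F4 (1145) by the interferon-response genes Ifit1 and Isg15. F5 (786) was led by Gdf15, Cthrc1 and Tnmd, F7 (619) by Apoe, Steap4 and Cxcl14, and F8 (495) by Cilp, Mgp and Thbs4. F6 (675) had a low median of 6736 UMIs and was led by AY036118, Gm42418 and mitochondrial genes. A ninth sub-cluster of 20 cells was not fitted. Of the immune-like cells, 1831 were macrophage-like and present in every library with at least 10 cells. Each sub-cluster was fitted over the libraries that gave it 10 or more cells, 15 to 18 of them.

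Por passed in 7 of the 8 fibroblast sub-clusters. Its amplitude was 0.59 ± 0.04 in F1, 0.69 ± 0.04 in F2, 0.58 ± 0.07 in F3, 0.78 ± 0.09 in F4, 0.70 ± 0.19 in F6, 0.73 ± 0.09 in F7 and 0.89 ± 0.09 in F8. In F5, where Por was most abundant, the amplitude was 0.27 ± 0.12 with a fitted peak at 10.37 ± 1.47 h (edgeR unadjusted p = 0.0371, adjusted p = 0.307). By edgeR, the adjusted p in the others ran from 2.17e-08 in F2 to 0.033 in F6, and the F6 call was lost in 7 of the 16 fits that left out a library. Fitted peaks ran from 9.46 ± 0.75 h in F6 to 12.11 ± 0.79 h in F7.

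**Figure D2:**
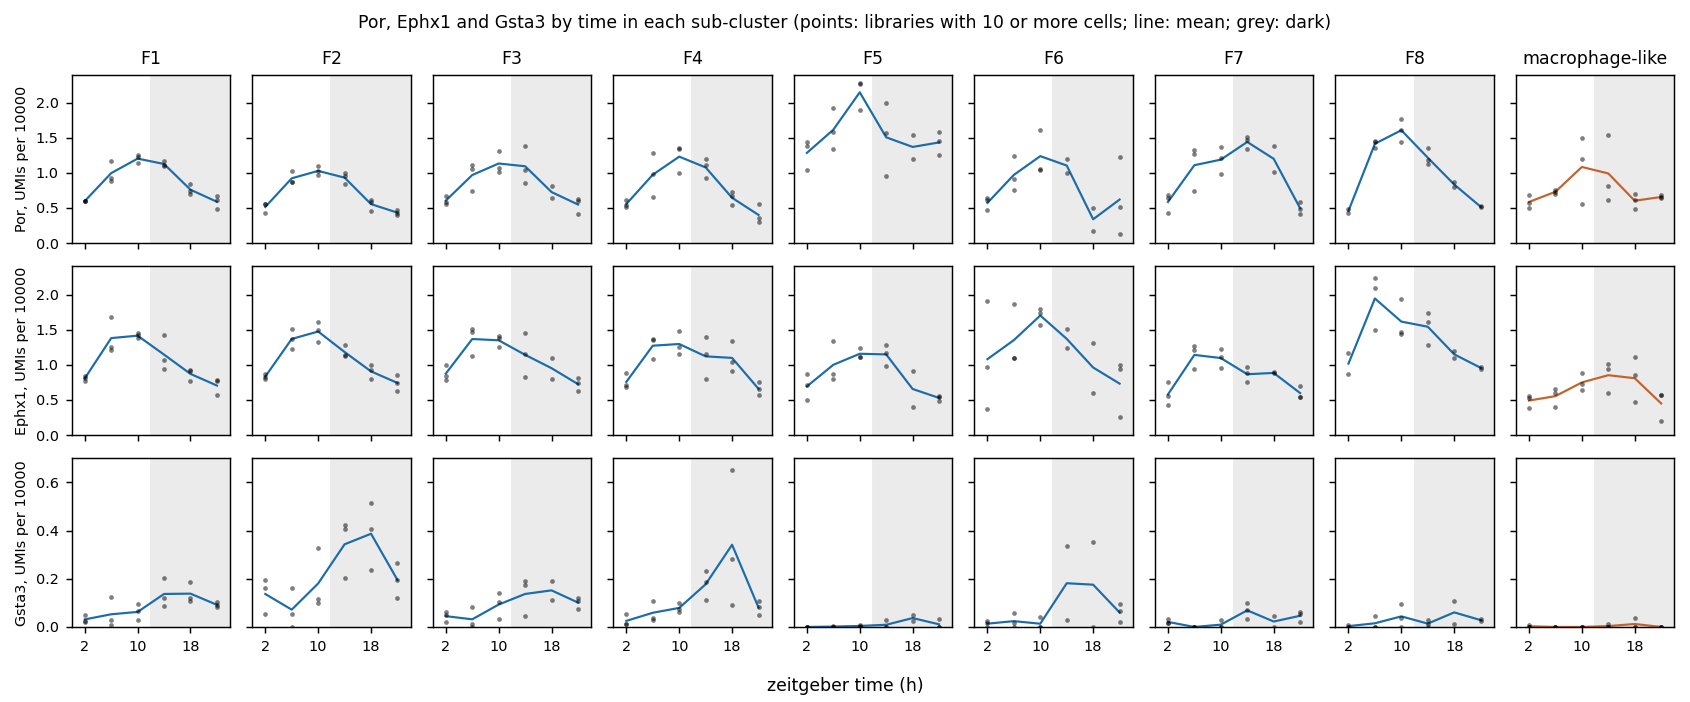
Levels of Por, Ephx1 and Gsta3 (UMIs per 10000, y axes) against zeitgeber time in hours (x axes) in F1 to F8 and in macrophage-like cells; points are libraries with 10 or more cells of the sub-cluster and lines join the means. Single libraries of Por ran from 0.960 at ZT14 to 2.28 at ZT10 in F5 and from 0.433 at ZT2 to 1.77 at ZT10 in F8.

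In F5, Por had 1.43, 1.04 and 1.38 UMIs per 10000 at ZT2, 1.57, 1.34 and 1.93 at ZT6, 2.27, 2.28 and 1.89 at ZT10, 0.960, 1.56 and 2.00 at ZT14, 1.201 and 1.54 at ZT18 (2 libraries) and 1.46, 1.59 and 1.25 at ZT22. In F8 it had 0.433 and 0.485 at ZT2, 1.35, 1.45 and 1.44 at ZT6, 1.45, 1.77 and 1.61 at ZT10, 1.18, 1.12 and 1.35 at ZT14, 0.7997 and 0.869 at ZT18 and 0.511 and 0.524 at ZT22. In F8 the libraries at ZT2 and ZT22 were well below those from ZT6 to ZT14. In F5 the libraries at ZT10 were above all of those at ZT2, ZT18 and ZT22. They overlapped those at ZT6 and ZT14, and the other times overlapped one another. The rhythm was then compared among the 8 sub-clusters in a single edgeR fit. Por differed with an adjusted p of 0.0467, where 0.624% of 11860 genes passed, and it was the only member called. With F5 left out and a 7-point dispersion grid, the adjusted p of Por was 0.341, while the 7-point grid with all 8 sub-clusters gave 0.0467. No other sub-cluster was left out in turn. The call also depended on single libraries, as 12 of the 18 fits that left out 1 library lost it, with adjusted p from 0.00718 to 0.295.

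Ephx1 passed in F1, F2, F3, F4, F5, F7 and F8 with amplitudes between 0.47 ± 0.07 (F3) and 0.57 ± 0.07 (F5), and had 0.51 ± 0.17 in F6 (adjusted p = 0.122). Its fitted peaks lay between 9.21 ± 0.96 h (F8) and 10.55 ± 0.72 h (F4). Unlike for Por, the amplitude of Ephx1 in F5 was as large as elsewhere, and the test among sub-clusters gave an adjusted p of 1. The calls in F7 (adjusted p = 0.0345) and F8 (adjusted p = 0.0359) were less stable. In F7 it was lost in 7 of the 17 fits that left out a library. In F8 it was lost in 8 of 15 such fits and in all 3 alternatives run, with an adjusted p of 0.0555 with the replicate number as a block. In F5 it was lost with the 6 times as a factor (adjusted p = 0.0597).

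Gsta3 was abundant enough to be tested in F1 to F4. It passed in F1 (0.96 ± 0.36, adjusted p = 0.0112), F2 (0.91 ± 0.20, adjusted p = 0.00387) and F4 (1.51 ± 0.38, adjusted p = 0.00188), and in F3 it had 1.00 ± 0.28 (adjusted p = 0.0715), with fitted peaks from 16.12 to 16.46 h in the 4. In F3 it passed in 1 of the 17 edgeR fits that left out a library, without ZT14 replicate 1 (adjusted p = 0.00675). The highest adjusted p in those fits was 0.18. In F4 the highest value, 0.652, came from ZT18 replicate 1 with 10 cells, beside 0.092 and 0.280 from the other 2 libraries at ZT18.

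Counts of members called were thus 3 in F1, F2 and F4, 2 in F3, F7 and F8 and 1 in F5 and F6. The members tested were not the same, as Gsta4 was tested in no sub-cluster and Gsta3 only in F1 to F4. In F6 only Por, Alas1, Ephx1 and Gstm1 were tested. The share of all tested genes called was 10.2% in F1, 5.5% in F2, 2.35% in F3, 2.13% in F4, 1.74% in F5, 1.03% in F6, 0.654% in F7 and 1.73% in F8. In macrophage-like cells edgeR called 0 of the 5 tested members, where 0.696% of 9193 genes passed. Por had an amplitude of 0.48 ± 0.15 and a peak at 11.02 ± 1.23 h there (unadjusted p = 0.000953, adjusted p = 0.0772), and Ephx1 had 0.46 ± 0.12 and 13.27 ± 1.12 h (unadjusted p = 0.00176, adjusted p = 0.101). Por passed in 2 of the 18 edgeR fits that left out a library, without ZT10 replicate 3 (adjusted p = 0.0404) or ZT14 replicate 2 (0.0498). Ephx1 passed in 1 of the 18, without ZT14 replicate 1 (0.0188). The highest adjusted p in these fits was 0.227 for Por and 0.21 for Ephx1, and neither passed in the 3 alternatives run.

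**Figure D3:**
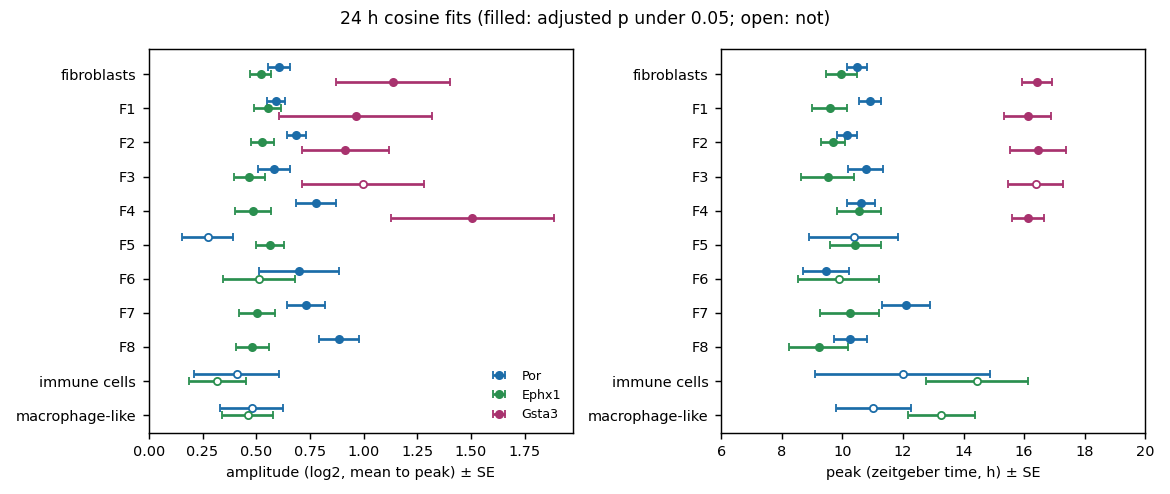
Amplitude on the log2 scale (left) and peak time in hours (right) of the 24 h cosine for Por, Ephx1 and Gsta3 in summed fibroblasts, F1 to F8, summed immune cells and macrophage-like cells; bars are the SE from leaving out each library, filled points have an adjusted p under 0.05. Por and Ephx1 peaked between 9.21 and 12.11 h and Gsta3 between 16.12 and 16.46 h in the fibroblast sub-clusters fitted, and the amplitude of Por was lowest in F5 at 0.27.

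The share of each sub-cluster among the fibroblasts was set beside these rhythms, with no test. F2, the sub-cluster richest in Gsta3, made up 22.9% ± 2.1 of the fibroblasts at ZT14 and 25.2% ± 0.49 at ZT18 (SD, n = 3), against means of 14.02% to 16.5% at the other times, where single libraries ran from 6.81% to 23.99%. F5, the richest in Por, made up 11.0% ± 7.3 at ZT6 and 10.4% ± 5.8 at ZT10, against means of 4.07% to 7.43% at the others, and the libraries at ZT6 and ZT10 overlapped those at ZT2, which reached 12.9%. Within F1 alone, the amplitudes of Por, 0.59, and Gsta3, 0.96, stood beside 0.61 and 1.14 in all fibroblasts. Mean median UMIs per fibroblast lay between 21620 and 25010 and the mean mitochondrial share between 2.08% and 2.42% at the 6 times, and their part in the rhythms was not tested.

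Levels differed between fibroblasts and immune cells in 2 directions. Cyp1b1, Cyp2f2, Ephx1, Gstm1 and Gsta3 were higher in fibroblasts in 18 of 18 libraries, as were 25.2% of the 13162 genes compared. Ahr was higher in immune cells in 18 of 18, as were 22.4% of those genes. Por was higher in fibroblasts in 12, Alas1 in 13 and Gsta4 in 14 libraries. Because the classes were made from the same cells, these levels are a description with no test.

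The median fibroblast level was 0.837 for Por and the immune one 0.710, and for Alas1 they were 0.285 and 0.222. The ranges of the classes overlapped for both genes. These are shares of the UMIs of a class, and neither RNA per cell nor protein was compared. Gstm1 had medians of 4.11 and 0.743, and Ephx1 of 1.03 and 0.503. Ahr had 0.123 in fibroblasts and 0.505 in immune cells, with the highest fibroblast library (0.160) below the lowest immune one (0.270). An unnamed group of 94 immune-like cells carried fibroblast genes, with 34441 of the 39652 Col1a1 UMIs of all immune cells. The same 94 cells held 19 of the 25 immune UMIs of Cyp1b1, 25 of the 38 of Cyp2f2, 33 of the 42 of Gsta3 and 871 of the 3280 of Gstm1. In the 1831 macrophage-like cells, Cyp1b1 had 2 UMIs, Gsta3 had 5 and Cyp2f2 had 12, and there Col1a1 had 1.70 UMIs per 10000 against 209.6 in fibroblasts. Whether these few UMIs are free RNA was not tested, and no expression of the 3 genes in immune cells is read from them. Ephx1 and Gstm1 had 1463 and 1988 UMIs in macrophage-like cells. Leaving out cells with markers of both classes took the immune median of Gstm1 to 0.579.

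**Figure D4:**
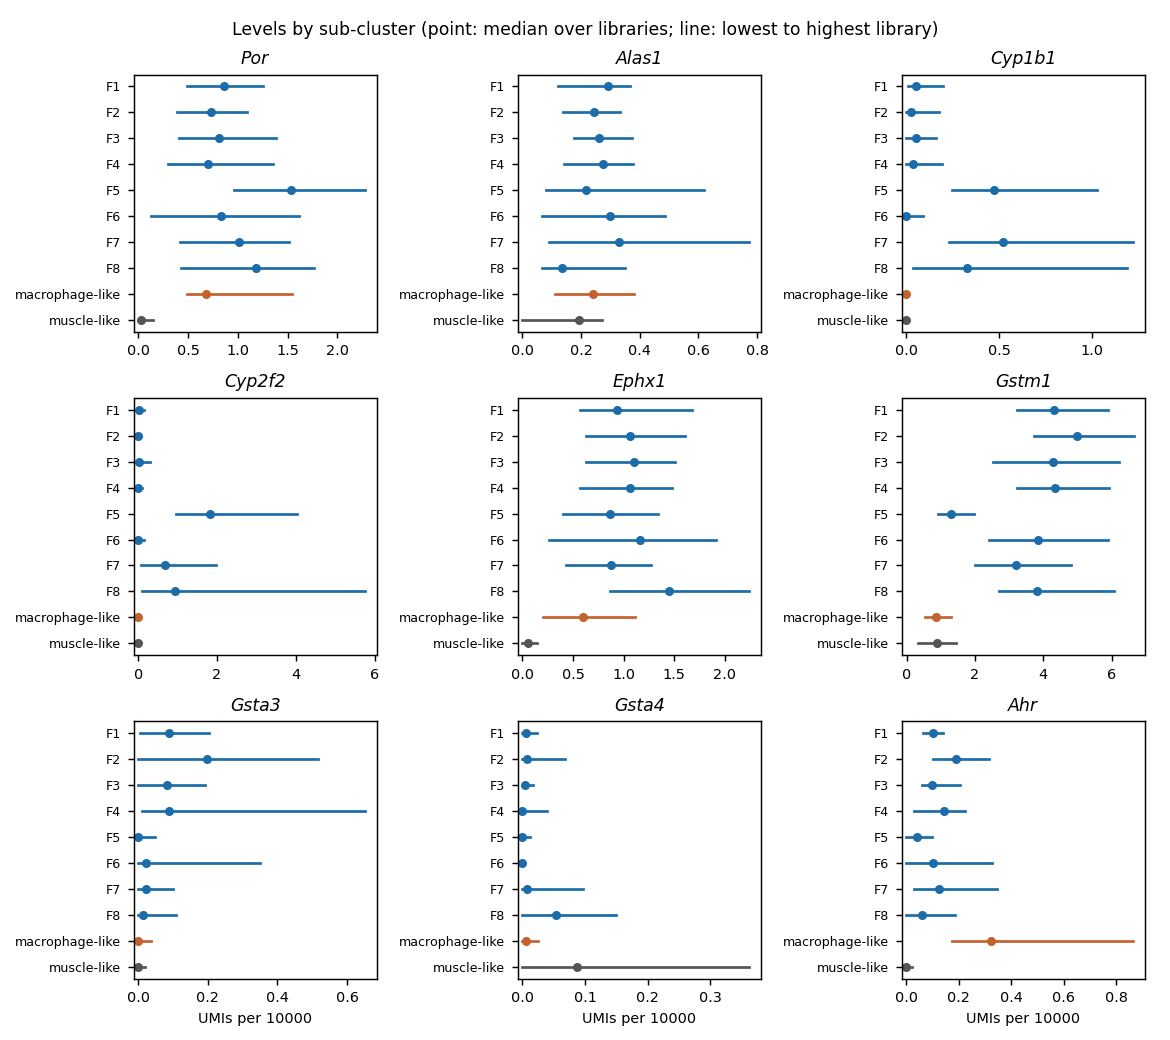
Levels of the 9 genes (UMIs per 10000, x axes) in F1 to F8, macrophage-like and muscle-like cells; points are medians over libraries with 10 or more cells and lines run from the lowest to the highest library. Cyp2f2 and Cyp1b1 were high in F5, F7 and F8, with medians of 0.680 to 1.83 for Cyp2f2 and 0.323 to 0.518 for Cyp1b1, and Gstm1 was low in F5 at 1.29.

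The P450 genes Cyp2f2 and Cyp1b1 had higher medians in F5, F7 and F8 than in the other fibroblasts, although ranges over libraries overlapped. Cyp2f2 had a median of 1.83 in F5 (0.952 to 4.03), 0.922 in F8 (0.105 to 5.76) and 0.680 in F7 (0.060 to 1.98), and at most 0.014 in the other 5. F5, F8 and F7 overlapped one another, and F7 was above F1, the next in order, in 17 of 17 libraries. Cyp1b1 had a median of 0.518 in F7 (0.230 to 1.22), 0.473 in F5 (0.2465 to 1.02) and 0.323 in F8 (0.033 to 1.18). In the others its median was at most 0.050, and single libraries of F1 reached 0.198. These 3 made up 6.26%, 4.93% and 3.94% of the fibroblasts as F5, F7 and F8, so they held a small share of the cells. In the library with the highest fibroblast level of Cyp2f2, ZT6 replicate 2, F5 was 19.4% of the fibroblasts, but in the next, ZT10 replicate 3, it was 4.89%.

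Por followed the same order at the top, with medians of 1.54 in F5, 1.18 in F8 and 1.01 in F7, although neighbours in the order overlapped down to macrophage-like cells (0.683). Muscle-like cells were set apart by low levels of Por, 0.026, and Ephx1, 0.052, which did not overlap any fibroblast sub-cluster or macrophage-like cells, except for Por in F6. Gstm1 went the other way in F5, with a median of 1.29 (0.917 to 1.99) that did not overlap F7 (2.01 to 4.801), while F2 was highest at 4.99. F2 was also highest for Gsta3 (0.196) and among fibroblasts for Ahr (0.189), and F5 had a median of 0 for Gsta3 and the lowest for Ahr (0.040). Alas1 ran from a median of 0.136 in F8 to 0.330 in F7, with every neighbour in the order overlapping, as for Por among fibroblasts. Gsta4 was highest in muscle-like cells (0.087) and F8 (0.054).

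Among the smaller immune groups, Ahr was high in myeloid cells with Ear2, with a median of 1.204 over 14 libraries (0.367 to 2.08), and in dendritic-like cells, with a median of 1.06 over 5 libraries (0 to 1.37), and these ranges overlapped. Pooled over libraries, Ahr had 0.322 in macrophage-like cells and 0.077 in neutrophil-like cells. Pooled likewise, Por was highest in neutrophil-like cells, 5.81 pooled, then in monocyte-like cells, 1.75 pooled and 1.05 to 3.02 in 5 libraries. Alas1 was also highest in neutrophil-like cells at 1.67. Of these cells 92 came from 1 library, so their levels have no replicate. Ephx1 was 0.700 in myeloid cells with Ear2 and 0.049 in dendritic-like cells, and Gstm1 was 2.91 in mast-like cells.

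The other genes of the pathway, in 8 lists without the members, were read in the fibroblast fit against 13.6% of all genes called, of which 873 peaked in the light and 869 in the dark. Of 16 tested glutathione transferases 7 passed, 4 with a fitted peak in the light and 3 in the dark but close to its start or end. Of 27 other phase 1 enzymes 8 passed, 3 in the light and 5 in the dark. Of 24 P450 enzymes and electron carriers 4 passed, of 19 genes of heme synthesis and breakdown 3, of 6 in Ahr signalling 2, of 12 transporters 3, of 14 other conjugating enzymes 0 and of 12 receptors and regulators 0. For the 2 lists with 0, edgeR gave 1 and 0 genes with an unadjusted p under 0.05. The median amplitude was 0.15 for the glutathione transferases, 0.16 for other phase 1 enzymes and 0.18 for P450 enzymes, beside 0.13 for all genes. In immune cells 0 genes of these 8 lists passed, where 0.072% of all 11114 tested genes did. With so few genes called, this 0 does not set the lists apart from other genes.

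**Figure D5:**
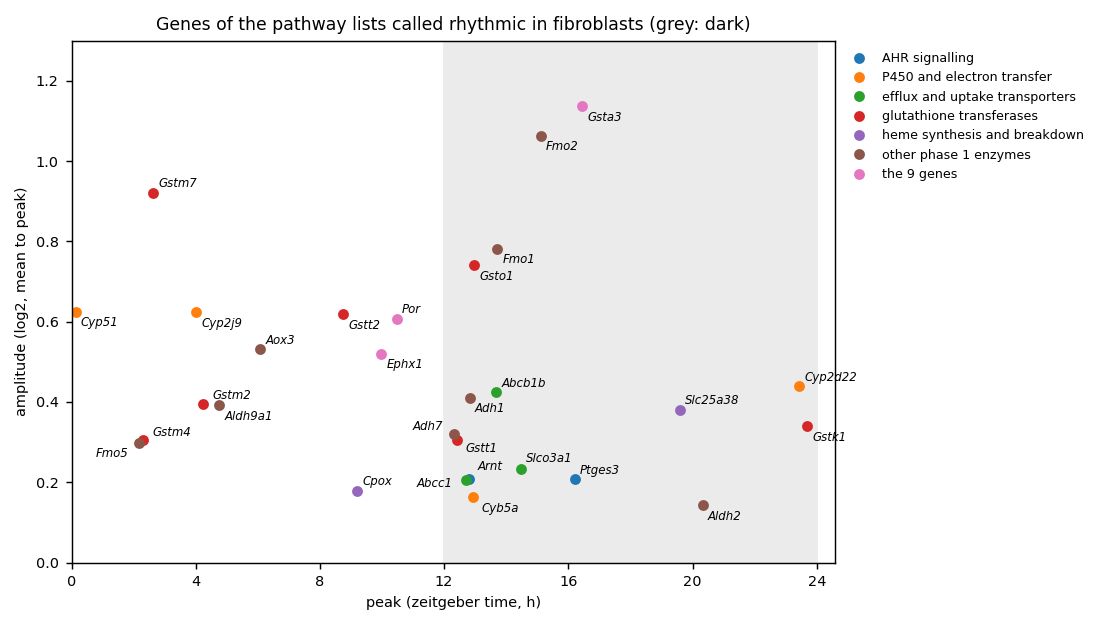
Peak time in hours (x axis) and amplitude on the log2 scale (y axis) of pathway genes with an adjusted p under 0.05 in summed fibroblasts, coloured by list, with the dark phase in grey; 1 gene of the heme list is not shown. Gsta3 at 16.43 h and Fmo2 at 15.11 h had the highest amplitudes, and Por and Ephx1 lay late in the light. The other transferases had fitted peaks from 2.31 h to 23.68 h.

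The largest of these rhythms was that of Fmo2, a flavin monooxygenase that oxidizes nitrogen and sulfur without a P450. It ranged from 0.382 to 2.45 UMIs per 10000 with a median of 1.07, an amplitude of 1.06 ± 0.12 and a peak at 15.11 h (adjusted p = 5.5e-06). Fmo1 peaked at 13.71 h with an amplitude of 0.78 ± 0.09, and Adh1, an alcohol dehydrogenase, at 12.82 h with 0.41 ± 0.06. Of the transferases, Gstm2 peaked at 4.24 h (0.39 ± 0.04), Gstt2 at 8.74 h (0.62 ± 0.08) and Gstm7 at 2.63 h (0.92 ± 0.19, with a median level of only 0.013). The 3 transferases called with a fitted peak in the dark were Gsto1 at 12.96 ± 1.24 h, Gstt1 at 12.41 ± 0.68 h and Gstk1 at 23.68 ± 0.76 h. All of these lay within their SE of lights off or lights on, beside 16.43 ± 0.49 h for Gsta3.

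Among P450 genes, Cyp2d22 peaked at 23.43 h (0.44 ± 0.05), Cyp2j9 at 4.02 h (0.62 ± 0.12) and Cyp51, the P450 of sterol synthesis, at 0.13 h (0.63 ± 0.14), beside 10.47 h for their electron donor Por. Cyb5a, the alternative electron carrier, passed with an amplitude of 0.16 ± 0.05. Around Alas1, the mitochondrial glycine carrier Slc25a38 peaked at 19.59 h (0.38 ± 0.06) and Cpox, a later enzyme of heme synthesis, at 9.18 h (0.18 ± 0.04). Arnt, the partner of Ahr, peaked at 12.79 h (0.21 ± 0.04, adjusted p = 0.00345), and Ptges3, a co-chaperone of the receptor, passed narrowly (adjusted p = 0.0485, and 0.0609 with the replicate number as a block). The 3 transporters called, Slco3a1, Abcb1b and Abcc1, peaked early in the dark, from 12.69 to 14.47 h. The call of Ptges3 was lost in 14 of the 18 fits that left out a library.

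Clock genes gave the reference for phase in the same sums. Dbp peaked at 9.88 h, Hlf at 11.04 h and Tef at 11.09 h, close to Por and Ephx1, while Nr1d1 peaked at 8.11 h, Per2 at 14.35 h and Arntl at 22.55 h. Their amplitudes were 1.37 (Tef) to 3.03 (Nr1d1), beside 0.61 for Por and 0.52 for Ephx1. Among all genes tested, the 5 whose log2 CPM were most like those of Por over the 18 fibroblast sums were Bhlhe41 (Pearson r = 0.949), Hlf (0.941), Tef (0.924), Maco1 (0.924) and Per3 (0.914). For Ephx1 they were Dbp (0.957), Bhlhe41 (0.941), Tef (0.935), Per3 (0.934) and Nr1d2 (0.923). For Gsta3 they were Scd4 (0.910), Uchl1 (0.897), Sipa1l2 (0.891), Plekhj1 (0.867) and Tubgcp4 (0.867), none of them a clock gene, and r fell to as low as 0.761 for Tubgcp4 when 1 library was left out. These are the highest of many values, from sums that share their libraries, and are a description.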

How the data were processed

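Single cells of dorsal dermis were measured in 18 libraries, 3 mice at each of 6 zeitgeber times, by 10x Genomics 3′ v3 chemistry. The authors aligned reads to mm10 and counted UMIs with Cell Ranger 3.1.0. They deposited raw counts per gene and barcode, before normalization and before the study's cell filter, for 318 to 2322 barcodes per library. The study's cell filter was applied (850 to 7800 detected genes, mitochondrial share below 13%). Counts were clustered with scanpy 1.11.5 (2000 variable genes, 30 components, Leiden resolution 0.8, sub-clusters 0.5), and clusters were named from marker genes, 3 or more being needed. The study's integration was not repeated, so cell type names are rebuilt and may differ from those of the study. No doublet caller was run, and an alternative left out 49 fibroblast-like and 96 immune-like cells with markers of the other class. Libraries shared 36 barcodes.

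For each cell type, the UMIs of a library were added up and tested with edgeR 4.0.16 (quasi-likelihood, TMM, filterByExpr, 24 h cosine and sine, Benjamini-Hochberg over all genes tested, 0.05). SEs of amplitudes and peaks come from leaving out each library (jackknife). Sub-clusters were fitted where 15 or more libraries had 10 or more cells. The scripts were tested on simulated data. Alternatives were library totals without TMM, RLE factors, DESeq2 1.42.0, times as a factor, no low-count filter, all deposited barcodes, another Leiden resolution (2) and a replicate block. Depth was 4850221 to 40827442 UMIs per library.

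The named genes were the 9 members, the 3 genes of each other list with the smallest p among those called in fibroblasts, the 5 genes most like each called member and the clock list. Of these, 1 gene of the heme list is not reported here. Cyb5a, Gsto1, Gstt1 and Gstk1 were named after their values were seen. Members and lists were chosen with earlier results of these data known, and the centring of fibroblast sub-clusters per library, the rule for ties and the names of sub-clusters were settled after clusters were seen. The labels make each replicate number 1 collection cycle, which pairs libraries across times. Deviations from the mean of a time correlated with a median r of 0.047 over 45 pairs with the same number and -0.030 over 90 pairs with different numbers. Gene positions are from GENCODE and promoters from RefSeq, both GRCm38.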

Additional observations from a re-analysis of the deposited data

Results flagged for a closer look

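The 24 h rhythm of Por differed among the 8 fibroblast sub-clusters by the test of the difference itself (edgeR, adjusted p = 0.0467). The amplitude on the log2 scale was 0.27 ± 0.12 in F5 and 0.58 to 0.89 in the other 7 sub-clusters. This scale compares ratios between times and not differences in UMIs. The lowest and highest time means, in UMIs per 10000, were 1.28 and 2.15 in F5. They were 0.588 and 1.203 in F1, and 0.459 and 1.61 in F8. F5 also had the highest level of Por, a median of 1.54 UMIs per 10000. The call was not made with F5 left out and a 7-point dispersion grid (adjusted p = 0.341), a fit chosen after seeing the data, and no other sub-cluster was left out in turn. It was not made either in the fits without ZT2 replicate 1 or 2, ZT6 replicate 1, ZT10 replicate 3, ZT14 replicate 2 or 3, or any 1 library of ZT18 or ZT22, for which the adjusted p was 0.0524 to 0.295. Without ZT18 replicate 2, Cyp1b1 was called in place of Por (adjusted p = 0.0224). In 5 of the 8 sub-clusters at least 1 time had fewer than 3 libraries.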

How the results depend on the processing

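In fibroblasts, Por, Ephx1 and Gsta3 were called and the other 6 members were not, under every alternative run and in all 18 fits that left out a library. With the times as a factor, Gsta3 in F2 was not called (adjusted p = 0.0510). In immune cells and between the classes, no member was called under any of them. With the 6 times as a factor, the genes called were 1130 in fibroblasts (1742 with the cosine), 339 in all kept cells (740), 325 in F2 (575), 131 in F3 (246), 96 in F4 (193), 89 in F5 (148), 27 in F7 (53), 61 in F8 (142) and 115 in macrophage-like cells (64), and the members called were 0 in F5, 0 in F6 and 1 in F8. DESeq2 called 35 genes in immune cells (edgeR 8) and 1640 in all kept cells, and no low-count filter gave 18 in immune cells. Library totals without TMM factors gave 1 member in F7 and 1 in F8. Leaving out cells with markers of both classes gave 43 genes for the difference between classes (28). With the replicate block, fibroblasts had 1820 genes called, F8 had 1 member called instead of 2 (Ephx1, adjusted p = 0.0555) and Ptges3 in fibroblasts lost its call (adjusted p = 0.0609). These were the only changes of call among 125 results for single genes, each a gene in 1 fit.

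Leaving out 1 library gave 5 (ZT2 or ZT14 replicate 2) to 26 genes (ZT2 replicate 3; 22 without ZT14 replicate 1) in immune cells, 469 (ZT14 replicate 2; 483 without ZT2 replicate 1) to 1007 in all kept cells, 165 to 449 (ZT14 replicate 1) in F3, 88 (ZT14 replicate 3) to 394 (ZT2 replicate 3) in F8, 47 to 154 (ZT14 replicate 1) in macrophage-like cells and 8 (ZT2 replicate 2) to 43 (ZT2 replicate 3) for the difference between classes, where 7 other libraries took it to 9 to 18 (ZT2 and ZT6 replicate 1, ZT6, ZT10 and ZT14 replicate 2, ZT14 and ZT18 replicate 3). Members called ran from 0 to 1 in F6, 1 to 2 in F7, 1 to 2 in F8 and 0 to 1 in macrophage-like cells. For the difference among sub-clusters the same fits, with a 7-point dispersion grid, gave 56 to 199 genes (199 without ZT2 replicate 3, 126 without ZT14 replicate 1) and 0 to 1 members, and leaving out F5 gave 0 members. These fits were chosen after seeing the data, as the planned ones with the 21-point grid were not run. Ephx1 in F7 lost its call without ZT2 replicate 2, or replicate 1 or 2 of ZT6, ZT10 or ZT22 (adjusted p = 0.0506 to 0.0986). Ephx1 in F8 lost it without replicate 1 of ZT2, ZT6 or ZT22, replicate 2 of ZT6, ZT10 or ZT22, or replicate 3 of ZT14 or ZT18 (0.0511 to 0.104), and Por in F6 without replicate 1 of ZT2, ZT10 or ZT22, replicate 2 of ZT22, or replicate 3 of ZT6, ZT10 or ZT18 (0.0522 to 0.0754). The causes were not tested. Gsta4 had 252 UMIs in all fibroblasts and the immune sums held as few as 481549 UMIs, and the part of depth in results that did not pass was not tested.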
